A study of Rattus norvegicus with 82 samples.

Results

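The genes described here code for matricellular and provisional matrix proteins: *Thbs1*, *Thbs2*, *Thbs4*, *Postn*, *Tnc*, *Spp1*, *Sparc*, *Cilp*, *Vcan* and *Fn1*. They were chosen by symbol, all 10 were among the 17337 genes of the deposited table, and all 10 passed the filter on low counts that left 11954 genes for testing. RNA of isolated cardiomyocytes was sequenced from both ventricles of 41 rats, right (RV) and left (LV), with 1 library per ventricle and so 82 libraries in 12 groups. The animals were F1 offspring of Wistar Kyoto dams and Lewis sires. A clip around the pulmonary artery (PAB) loads the RV, a clip around the aorta (AOB) loads the LV, and sham-operated rats served as controls. The clips were not constrictive when placed, so the load developed as the animals grew. Group names ending in H stand for compensated hypertrophy and those ending in F for decompensation with heart failure.

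The hypertrophy stage comprised 7 Sham-H rats, 6 with PAB and 6 with AOB, taken at 11 weeks of age by the labels, 7 weeks after surgery. At the F stage the labels give 9 Sham-F and 7 AOB-F animals at 31 weeks of age, 26 weeks after surgery, and 6 PAB-F animals at 28 weeks, 22 weeks after surgery. The PAB-F rats were therefore younger than the Sham-F rats they are compared with, and the study's methods state other ages at harvest. Males were 3 of 7 in Sham-H, 4 of 6 in PAB-H, 2 of 6 in AOB-H, 4 of 9 in Sham-F, 4 of 6 in PAB-F and 4 of 7 in AOB-F. The RV and LV libraries of 1 animal share its replicate number within a condition. Cells were freed with collagenase and enriched by centrifugation, and total RNA was sequenced after depletion of ribosomal RNA.

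Matricellular proteins are secreted into the extracellular matrix but bear little load. They bind collagens, integrins, proteases and growth factors, are scarce in the healthy adult heart and are known to return when the myocardium is injured or overloaded. Fibronectin and the proteoglycan versican form the provisional scaffold on which a collagen matrix is later laid down. Activated fibroblasts and macrophages are the textbook sources of several of these proteins, so the level of such cells' markers is given beside the results.

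RefSeq promoter windows of the rat assembly GRCr8 were at hand for 8 of the 10 genes, all but *Thbs2* and *Fn1*. The 250 bases before the start site are shown for the 4 genes with a window that ends at the annotated start of the gene. Of these *Thbs4* and *Vcan* were called higher at 3 of the 4 combinations of stage and loaded ventricle, and *Thbs1* and *Sparc* at none. *Postn* was also called at 3, but its window lies inside the annotated gene. Capitals mark matches to the letters GGAATG (bound by TEAD factors) and CAGACA (bound by SMAD proteins), on either strand.
Thbs4 (chr2:25760346-25760595, minus strand): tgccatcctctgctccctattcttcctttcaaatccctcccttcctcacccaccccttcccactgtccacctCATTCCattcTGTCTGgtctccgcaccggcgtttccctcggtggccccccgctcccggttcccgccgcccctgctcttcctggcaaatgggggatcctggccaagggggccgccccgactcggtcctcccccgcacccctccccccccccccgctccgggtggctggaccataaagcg
Vcan (chr2:22595956-22596205, minus strand): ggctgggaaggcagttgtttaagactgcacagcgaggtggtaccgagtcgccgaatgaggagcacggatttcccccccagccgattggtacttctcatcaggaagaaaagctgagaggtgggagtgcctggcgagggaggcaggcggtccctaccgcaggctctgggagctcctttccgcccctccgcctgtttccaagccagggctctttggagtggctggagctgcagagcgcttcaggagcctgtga
Thbs1 (chr3:125510000-125510249, plus strand): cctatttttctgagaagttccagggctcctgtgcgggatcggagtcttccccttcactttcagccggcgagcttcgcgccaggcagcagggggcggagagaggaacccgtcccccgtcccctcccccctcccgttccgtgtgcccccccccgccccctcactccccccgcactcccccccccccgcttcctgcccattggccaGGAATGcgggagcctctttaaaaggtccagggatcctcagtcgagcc
Sparc (chr10:40038817-40039066, minus strand): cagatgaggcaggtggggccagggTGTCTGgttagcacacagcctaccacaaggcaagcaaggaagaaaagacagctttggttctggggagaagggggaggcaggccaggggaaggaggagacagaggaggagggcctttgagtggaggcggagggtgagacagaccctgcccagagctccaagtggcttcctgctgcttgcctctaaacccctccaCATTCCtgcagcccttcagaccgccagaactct
The *Thbs4* window held 1 GGAATG match, 178 bases before the start site, and 1 CAGACA match at 168 bases. In *Sparc* the same 2 motifs lay 33 and 226 bases before the start, and in *Thbs1* 1 GGAATG match lay at 47 bases. The *Vcan* window held neither. Of all 33469 windows of this length, 12.1% held GGAATG and 17.2% held CAGACA, and the AP-1 letters TGACTCA or TGAGTCA, present in 4.05%, occurred in none of the 8 genes' windows. TATAAA, present in 12.9%, lay in those of *Postn*, *Tnc* and *Spp1*, and CAGACA also in those of *Tnc* and *Cilp*. The matches overlap no other motif searched and describe the sequence only.

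Before the levels, the purity of the cells was checked. A list of 8 ventricular cardiomyocyte genes (*Myh6*, *Myl2*, *Tnnt2* and others) held between 3.81% and 11.3% of all gene counts of a library. A list of 10 fibroblast genes held between 0.0176% and 0.325%, and a list of 8 macrophage genes between 0.00138% and 0.0269%. Every fibroblast and macrophage gene was detected in all 82 libraries except *Col1a2*, which had no count in 71. Among neutrophil markers *S100a8* had no count in 60 libraries, *S100a9* none in 63 and *Mpo* none in 79. *Csf3r* of the same list had none in only 28 libraries and reached 66 raw counts. The haemoglobin gene *Hba1* had no count in any library, while the red cell genes *Hbb* and *Alas2* were counted in all. Endothelial genes held 0.061% to 0.466% and mural genes 0.0303% to 0.179%. In RNA of a mixed cell preparation, fewer cells of a type and less RNA per cell cannot be told apart.

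A few libraries stood apart for these 10 genes. RV PAB-H replicate 2 had the highest value of its group for 9 of the 10 genes, RV PAB-F replicate 1 for all 10 and LV AOB-H replicate 6 for 9. These 3 libraries also had the highest fibroblast share of their groups. AOB-F animals 6 and 7 held the 2 highest values of *Tnc*, *Spp1*, *Postn* and *Vcan* in both ventricles. Their fibroblast shares were the 2 lowest of RV AOB-F (0.0331% and 0.0322%) and among the 3 lowest of LV AOB-F (0.0877% and 0.0799%). Animal 7 had the highest macrophage share of RV AOB-F (0.0112%, group median 0.00371%). It also had the highest neutrophil share in both ventricles, 0.000162% in RV AOB-F and 0.000818% in LV AOB-F. The highest macrophage share of LV AOB-F (0.0269%) was that of replicate 2. Results that rest on these libraries are given with and without them.

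Levels of different genes can be compared only per length, for which the authors' FPKM values are used. On that scale *Sparc*, a collagen-binding glycoprotein also called osteonectin, ranked first with a median of 251 FPKM over the 82 libraries. *Thbs1*, which binds CD36 and CD47 and activates latent TGF-β, followed with 39.9 FPKM, then *Fn1* (fibronectin) with 12.9 FPKM and *Thbs2* (an inhibitor of vessel growth) with 4.06 FPKM. The remaining 6 genes were low, at medians of 1.27 FPKM for *Cilp*, 1.17 for *Vcan*, 1.09 for *Spp1*, 0.824 for *Postn*, 0.251 for *Thbs4* and 0.171 for *Tnc*. The 10 genes together held between 0.0365% and 0.287% of the gene counts of a library.

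Levels of a single gene are given below as normalized counts, that is raw counts scaled to a common effective depth of 13279120, the mean TMM-adjusted library total. When the 12 groups were ordered by their median, LV AOB-F ranked first for 8 of the 10 genes, RV PAB-H for *Thbs4* and RV PAB-F for *Spp1*. In all 110 pairs of groups that are neighbours in such an order, 11 per gene, the ranges of the libraries overlapped. The order of groups is therefore a description of medians, and differences between groups rest on the fits that follow.

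**Figure D1:**
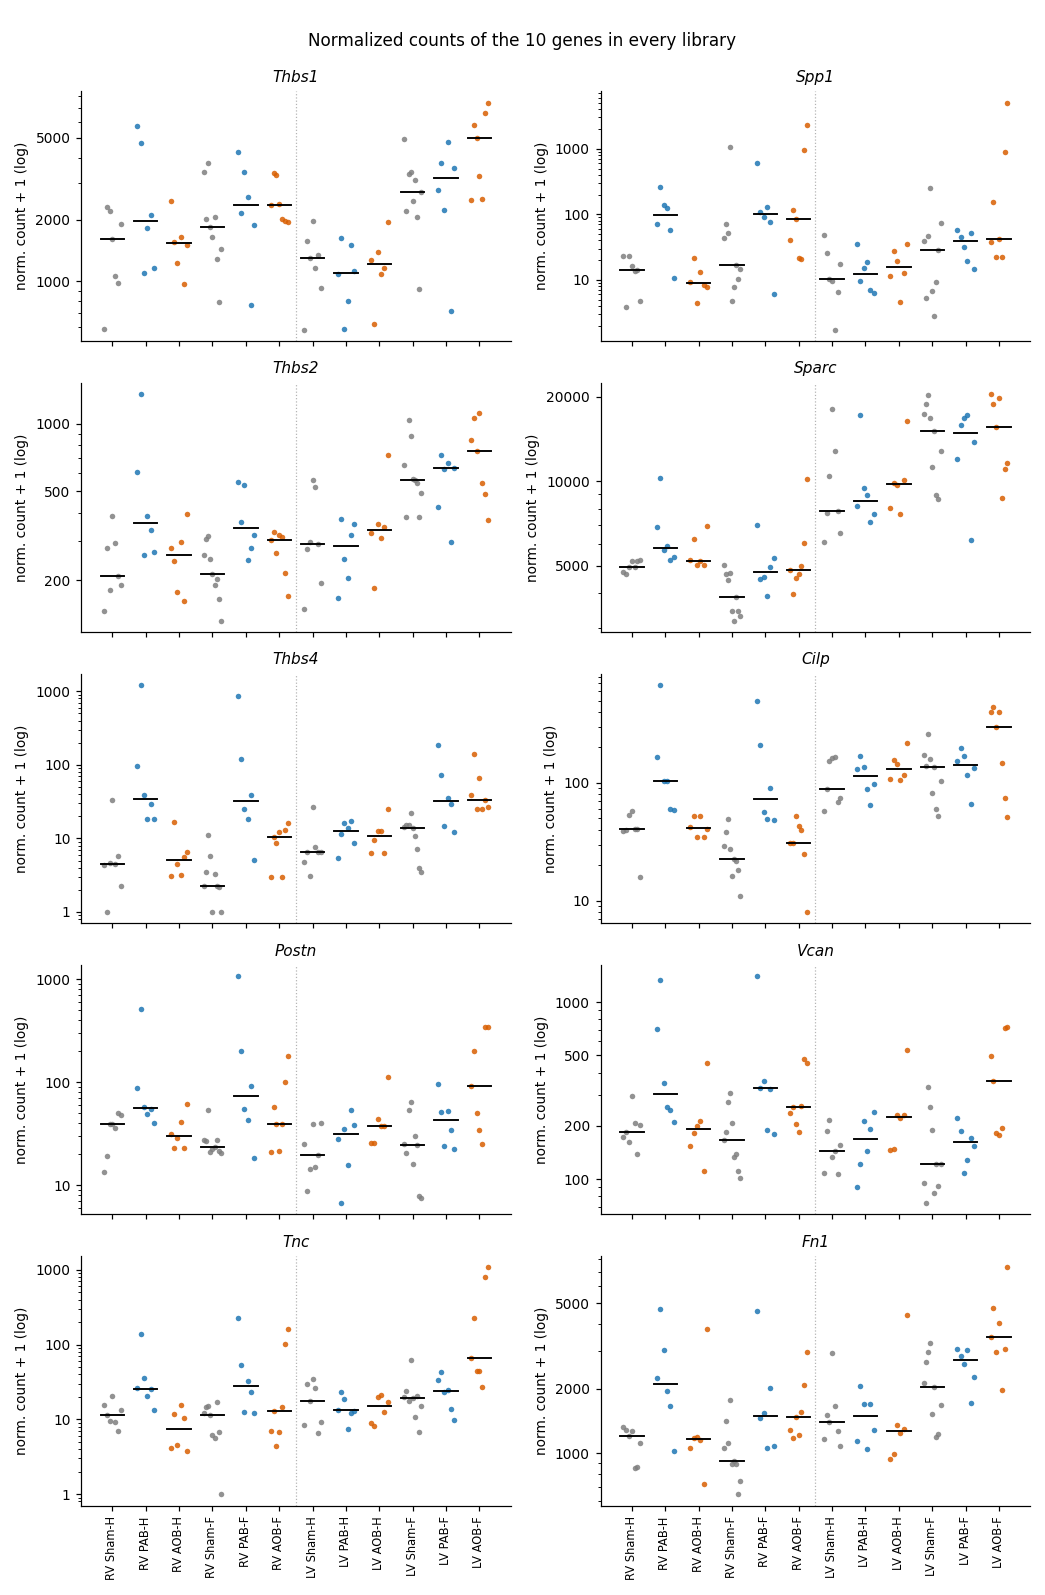
Normalized counts plus 1 on a log axis for each of the 10 genes in each library (points) of the 12 groups, with the group median as a black bar; grey is sham, blue PAB and orange AOB, and the dotted line separates RV from LV groups. The RV PAB-H and RV PAB-F groups each hold 1 library far above the others for *Thbs4* (1218 and 869), and LV AOB-F holds 2 for *Tnc* (790 and 1082).

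In the pressure-loaded RV at the compensated stage, 6 of the 10 genes were higher than in the sham RV and 0 were lower, by edgeR's quasi-likelihood test at an adjusted p under 0.05. Of all 11954 genes tested, 3.91% were called higher and 4.5% in either direction. The 10 fold changes were all positive, with a median of 1.66 on the log2 scale against 0.00434 over all genes tested. The genes called were *Thbs4*, *Cilp*, *Postn*, *Vcan*, *Thbs2* and *Fn1*.

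Among the thrombospondins, multidomain glycoproteins that bind calcium and cell surface receptors, *Thbs4* stood out. This gene is known to be induced in stressed heart muscle. Its normalized counts were 0 to 32.6 (median 3.47) in RV Sham-H and 17.3 to 1218 (median 32.9) in RV PAB-H. The 3 lowest PAB-H libraries lay below the highest sham library, RV Sham-H replicate 4. The fitted difference was 5.07 ± 0.86 (log2 ± SE, n = 6 and 7, adjusted p = 0.000354, edgeR). *Thbs2* ran from 145 to 388 (median 209) in the sham RV and from 258 to 1358 (median 359) in RV PAB-H, a difference of 1.16 ± 0.30 with an adjusted p of 0.0193 by edgeR. Only 2 of its 6 PAB-H libraries exceeded every sham library. *Thbs1* had 1094 to 5724 (median 1963) normalized counts against 585 to 2313 (median 1602) and was not called (0.86 ± 0.35, adjusted p = 0.137, edgeR).

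*Cilp*, cartilage intermediate layer protein, a secreted glycoprotein that binds TGF-β, was the only 1 of the 10 whose RV PAB-H libraries all lay above all sham libraries. Such separation upwards was seen in 1.32% of the genes tested. Its normalized counts were 14.9 to 56.6 (median 39.4) in RV Sham-H and 58 to 677 (median 104) in RV PAB-H, a difference of 2.27 ± 0.46 (adjusted p = 0.00309, edgeR). *Postn*, periostin, the product of activated fibroblasts that promotes collagen assembly, had 12.4 to 49.2 (median 38.1) in the sham RV and 39.5 to 518 (median 55.5) in RV PAB-H. That difference of 1.99 ± 0.61 was close to the threshold (adjusted p = 0.0435, edgeR), with 4 of 6 libraries above all shams. *Tnc*, tenascin-C, which loosens the attachment of cells to the matrix, had 12.3 to 139 (median 24.8) normalized counts against 6 to 19.6 (median 10.5) and did not pass (1.91 ± 0.72, adjusted p = 0.101, edgeR).

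*Vcan*, versican, the large hyaluronan-binding proteoglycan, had 138 to 295 (median 184) normalized counts in RV Sham-H and 209 to 1331 (median 301) in RV PAB-H. The difference was 1.42 ± 0.39 (adjusted p = 0.0237, edgeR). *Fn1* had 855 to 1324 (median 1207) in the sham RV and 1029 to 4684 (median 2094) in RV PAB-H, a difference of 1.10 ± 0.32 (adjusted p = 0.0349, edgeR), and 5 of its 6 PAB-H libraries lay above all shams. *Spp1*, osteopontin, an integrin-binding phosphoprotein that macrophages secrete, also had 5 of 6 libraries above all shams. Its values were 9.88 to 262 (median 96.8) against 2.86 to 22.5 (median 13.2), but with an SE above 1 its difference of 3.03 ± 1.13 was not called (adjusted p = 0.0986, edgeR). *Sparc* had 5259 to 10316 (median 5777) against 4673 to 5261 (median 4964) and was not called (0.39 ± 0.22, adjusted p = 0.311, edgeR), although 5 of 6 libraries lay above all shams.

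These calls rested on 1 library. Without RV PAB-H replicate 2, 0 of the 10 genes were called, while 0.225% of all genes tested still were. All 10 fold changes stayed positive, with a median of 0.84. *Postn* also lost its call without RV PAB-H replicate 1 or any single sham library, *Fn1* without RV PAB-H replicate 1 or 3 or RV Sham-H replicate 3, 5, 6 or 7, and *Vcan* without RV PAB-H replicate 1 or RV Sham-H replicate 6. Without replicate 2 *Thbs4* differed by 2.50 (adjusted p = 0.177, edgeR) and *Cilp* by 1.27 (adjusted p = 0.264, edgeR). The fibroblast list moved with the members. All 9 of its testable genes were called higher in RV PAB-H, with a median of 1.30 on the log2 scale, and 0 of 9 without replicate 2. Of 8 macrophage genes 0 were called, with a median of 0.96, and of 4 atrial genes 2, with or without replicate 2. Of 7 endothelial, 7 mural and 4 Schwann cell genes 1 each was called higher, and 0 endothelial and 0 mural genes without replicate 2. The summed share of the fibroblast list was 0.0262% to 0.0505% (median 0.0385%) in RV Sham-H and 0.0395% to 0.325% (median 0.0578%) in RV PAB-H. With the fibroblast score of each library as a covariate, 0 of the 10 members were called in RV PAB-H, *Thbs4* being at 1.46 and *Cilp* at 0.57. With sex as a covariate 4 were called. For these and all later fits with a covariate, the share of all genes called was not computed. A change particular to the members is therefore not shown.

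**Figure D2:**
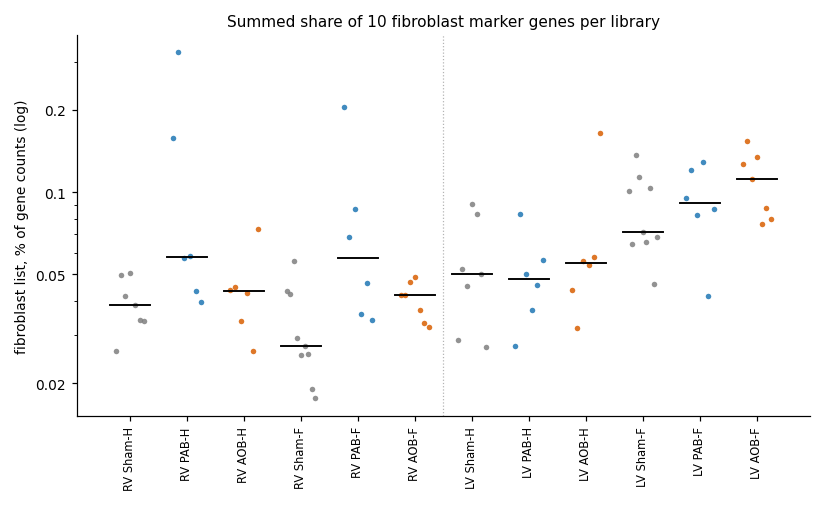
Summed share of 10 fibroblast marker genes in the gene counts of each library (percent, log axis) for the 12 groups, with medians as black bars; grey is sham, blue PAB and orange AOB. RV PAB-H replicate 2 has 0.325% and RV PAB-F replicate 1 has 0.205%, the highest values of their groups, while the LV AOB-F libraries lie between 0.0762% and 0.154%.

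In the failing RV, again 6 of the 10 genes were called higher in PAB-F than in Sham-F and 0 lower, where 7.66% of all genes tested were called higher. The median of the 10 fold changes was 1.13 on the log2 scale against 0.0162 over all genes. The genes called were *Thbs4*, *Postn*, *Tnc*, *Cilp*, *Vcan* and *Fn1*. Either direction counted, 11.1% of all genes were called. Each stage had its own sham animals.

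*Thbs4* had 0 to 10.2 (median 1.22) normalized counts in RV Sham-F, where 2 of the 9 libraries were at 0, and 4.12 to 869 (median 31.2) in RV PAB-F. The fitted difference was 5.94 ± 0.87 (adjusted p = 7.41e-07, edgeR), and 5 of 6 PAB-F libraries lay above all sham libraries. *Cilp* had 9.9 to 48.8 (median 21.7) in RV Sham-F and 47.4 to 494 (median 72.6) in RV PAB-F, a difference of 2.62 ± 0.45 (adjusted p = 2.34e-05, edgeR). Its groups overlapped only narrowly, since the 2 lowest PAB-F libraries, the lower at 47.4, fell just under the highest sham library at 48.8. *Postn* had 19.8 to 52.9 (median 22.9) normalized counts in RV Sham-F and 17.5 to 1074 (median 73.3) in RV PAB-F, where 1 library lay below all shams and 4 above. The difference in *Postn* was 3.20 ± 0.58 (adjusted p = 7.35e-05, edgeR).

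*Tnc* had 0 to 15.8 (median 10.5) in RV Sham-F and 11.3 to 223 (median 26.8) in the failing RV, a difference of 2.66 ± 0.68 (adjusted p = 0.0063, edgeR). For *Vcan* the values were 100.2 to 308 (median 165) and 179 to 1401 (median 325), a difference of 1.36 ± 0.36 with an adjusted p of 0.00872 by edgeR. *Fn1* passed narrowly, with 646 to 1763 (median 919.9) in the sham and 1056 to 4569 (median 1499) in the banded group (0.89 ± 0.30, adjusted p = 0.0414, edgeR). Not called were *Thbs2* (0.76 ± 0.28), *Thbs1* (0.30 ± 0.33), *Sparc* (0.33 ± 0.21) and *Spp1* (0.21 ± 0.89). The PAB-F median of *Spp1*, 99.5, was above the sham median of 15.8, but 1 sham library, RV Sham-F replicate 4, reached 1061, more than any PAB-F library.

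Without RV PAB-F replicate 1, 2 of the 10 genes remained called, *Thbs4* at 3.82 (adjusted p = 0.00237, edgeR) and *Cilp* at 1.83 (adjusted p = 0.00703, edgeR), and 2.16% of all genes tested were called higher. *Postn* was then at 1.62 (adjusted p = 0.0828, edgeR), *Tnc* at 1.52 and *Spp1*, with its sign changed, at -0.82. *Fn1* also lost its call without RV PAB-F replicate 5 or RV Sham-F replicate 1, 5, 6, 7, 8 or 9, and *Thbs2* gained one without RV PAB-F replicate 4 or RV Sham-F replicate 3. The same 2 genes were called with the fibroblast score as a covariate, *Thbs4* at 3.20 (adjusted p = 0.00117, edgeR) and *Cilp* at 1.36 (adjusted p = 0.00392, edgeR). Of the 9 testable fibroblast genes 4 were called higher in RV PAB-F, *Ddr2* (1.23 ± 0.22, adjusted p = 3.91e-05), *Col3a1*, *Col1a1* and *Lum*, and 1 without replicate 1. The list's share was 0.0176% to 0.0561% (median 0.0273%) in RV Sham-F and 0.0339% to 0.205% (median 0.0574%) in RV PAB-F. Of 8 macrophage genes 3 were called higher, and 0 without replicate 1, the median going from 0.99 to 0.49. Of 7 endothelial genes 2 were called higher, of 7 mural genes 2 and of 4 atrial genes 2, against 1, 0 and 2 without replicate 1. Replicate 1 also had the highest atrial (0.859%), endothelial (0.19%) and mural (0.0849%) shares of its group. The atrial list holds *Nppa*, whose raw counts reached 77453 over the 82 libraries. Those of *Myl7*, *Sln* and *Myl4* reached at most 603, 247 and 459. The atrial share of this library is therefore mainly *Nppa*, which the paper uses as a marker of heart failure. Whether atrial cells had a part in it was not tested. The part of these markers in the result was not tested.

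In a test of the response of the RV to PAB between the stages, 0 of the 10 genes were called by edgeR, as were 0% of all genes tested. At an unadjusted p under 0.05 there were 177 of all genes and 0 members, and DESeq2 called 0 members. The largest difference of the 10 genes was that of *Spp1*, -2.82 ± 1.46 on the log2 scale (F minus H).

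**Figure D3:**
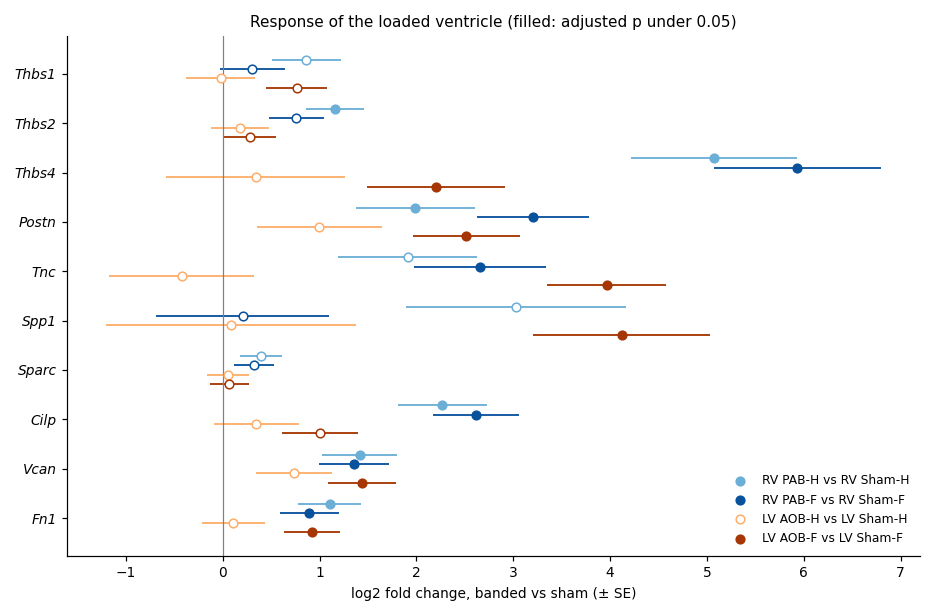
Log2 fold change (± SE) of the 10 genes against sham in the pressure-loaded ventricle, for RV PAB-H, RV PAB-F, LV AOB-H and LV AOB-F; filled points have an adjusted p under 0.05 (edgeR). *Thbs4* has the largest changes in the RV (5.07 and 5.94), and *Spp1* and *Tnc* in LV AOB-F (4.12 and 3.96), while all LV AOB-H points are open.

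In the pressure-loaded LV at the compensated stage 0 of the 10 genes were called by edgeR, where 0.0167% of all genes tested were called. The count of the 10 genes was also 0 at an unadjusted p under 0.05, which 2387 of all genes had, and 0 by DESeq2. The median of the 10 fold changes was 0.14. *Postn* had the largest, 1.0 ± 0.64, with 24.9 to 112 (median 36.7) normalized counts in LV AOB-H against 7.83 to 39.2 (median 18.7) in LV Sham-H, followed by *Vcan* at 0.74 ± 0.39 with 4 of 6 libraries above all shams. One library, LV AOB-H replicate 6, held the highest value for every gene but *Tnc* and the highest fibroblast share of its group (0.164%).

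In the failing LV, 6 of the 10 genes were called higher in AOB-F than in Sham-F, where 8.54% of all genes tested were and 12.9% were called in either direction. The median of the 10 fold changes was 1.22 against 0.0378 over all genes. The genes called were *Tnc*, *Spp1*, *Postn*, *Thbs4*, *Vcan* and *Fn1*. Of these *Thbs4* was the only 1 without overlap, all 7 AOB-F libraries lying above all 9 sham libraries, as in 0.0586% of the genes tested. Its normalized counts were 2.46 to 21.4 (median 12.7) in LV Sham-F and 23.7 to 140.3 (median 32.8) in LV AOB-F (2.20 ± 0.71, adjusted p = 0.0305, edgeR).

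*Tnc* had 5.88 to 60.5 (median 18.5) normalized counts in LV Sham-F and 26.2 to 1082 (median 64.3) in LV AOB-F. The difference of 3.96 ± 0.61 had the smallest p of the 10 genes here (adjusted p = 1.52e-05, edgeR), and 4 of 7 AOB-F libraries exceeded all shams. *Spp1* had 1.78 to 248 (median 27.4) in LV Sham-F and 21.4 to 5034 (median 40.8) in LV AOB-F, a difference of 4.12 ± 0.92 (adjusted p = 0.0019, edgeR). Only animals 6 and 7, at 883 and 5034, lay above all shams, and the other 5 had at most 150.5, below the highest sham value. *Postn* had 6.55 to 64.2 (median 23.5) in the sham and 24.3 to 342 (median 90.3) in the banded LV and differed by 2.52 ± 0.55 (adjusted p = 0.00175, edgeR).

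Both scaffold genes were called in the failing LV. *Vcan* had 176 to 722 (median 356) normalized counts against 72.3 to 329 (median 120.3) in the sham LV, a difference of 1.44 ± 0.35 (adjusted p = 0.00416, edgeR). *Fn1* had 1962 to 7336 (median 3474) against 1193 to 3271 (median 2044), a difference of 0.92 ± 0.29 (adjusted p = 0.0249, edgeR). *Cilp* was not called (1.0 ± 0.39, adjusted p = 0.072, edgeR), although 4 of its 7 libraries lay above all shams, and animals 6 and 7 had the 2 lowest values of the group, 72.9 and 50.9 against a group median of 299. *Thbs1* (0.76 ± 0.32), *Thbs2* (0.28 ± 0.27) and *Sparc* (0.07 ± 0.20) were not called.

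Animals 6 and 7 were also set apart in the remote RV of the same hearts. Their RV AOB-F libraries had 101 and 159.8 normalized counts of *Tnc*, where the other 5 had at most 13.7. For *Spp1* they had 942 and 2302 against at most 114.6, and for *Postn* 99.0 and 179.8 against at most 56.1. For *Vcan* they had 479 and 454 against at most 258. They were thus high in both ventricles for the same 4 genes. Leaving out both animals (a choice made after seeing these values), 2 of the 10 genes were called in LV AOB-F, *Tnc* at 1.96 (adjusted p = 0.0219, edgeR) and *Cilp* at 1.39 (adjusted p = 0.0337, edgeR), and 1.91% of all genes tested were called higher. *Thbs4* was then at 2.43 (adjusted p = 0.0581, edgeR), *Postn* at 1.56 and *Spp1* at 0.11. In single leave-outs, *Spp1* lost its call without LV AOB-F replicate 7 (1.93, adjusted p = 0.151, edgeR) and *Thbs4* without replicate 2 (1.70, adjusted p = 0.116, edgeR). *Thbs4* also lost it without LV Sham-F replicate 7, 8 or 9, and *Fn1* without LV AOB-F replicate 7 or LV Sham-F replicate 7 or 8, while *Cilp* gained one without LV Sham-F replicate 3 or LV AOB-F replicate 7.

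Of the fibroblast list, 0 of 9 testable genes were called in LV AOB-F by edgeR, with a median fold change of 0.40 on the log2 scale, and the share of the list was 0.0462% to 0.137% (median 0.0712%) in LV Sham-F and 0.0762% to 0.154% (median 0.112%) in LV AOB-F. With the fibroblast score as a covariate 7 of the 10 members were called, the same 6 and *Thbs1*. Of 8 macrophage genes 3 were called higher, *Cd68* (1.42 ± 0.36, adjusted p = 0.00597), *Mrc1* and *Csf1r*. Without animals 6 and 7 the count was 0, while the median of the list went from 0.86 to 0.77. The share of the macrophage list was 0.00429% to 0.017% (median 0.00797%) in LV Sham-F and 0.00474% to 0.0269% (median 0.0198%) in LV AOB-F, and its part in the result was not tested. Of 7 endothelial genes 2 were called higher, and of 7 mural genes 1. Without animals 6 and 7 the counts were 2 endothelial, 2 mural and 0 fibroblast genes. The list medians then went from 0.43 to 0.63 (endothelial), from 0.31 to 0.46 (mural) and from 0.40 to 0.56 (fibroblast). The ventricular cardiomyocyte list held 6.39% to 8.93% (median 7.88%) in LV Sham-F and 3.81% to 8.75% (median 6.11%) in LV AOB-F. When only the 2 groups were fitted, and so did not share the spread of the other 10, *Thbs4* (adjusted p = 0.0496) and *Tnc* (adjusted p = 0.0314) were called by edgeR, among 15 genes in all against 1541 in the fit to all groups.

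**Figure D4:**
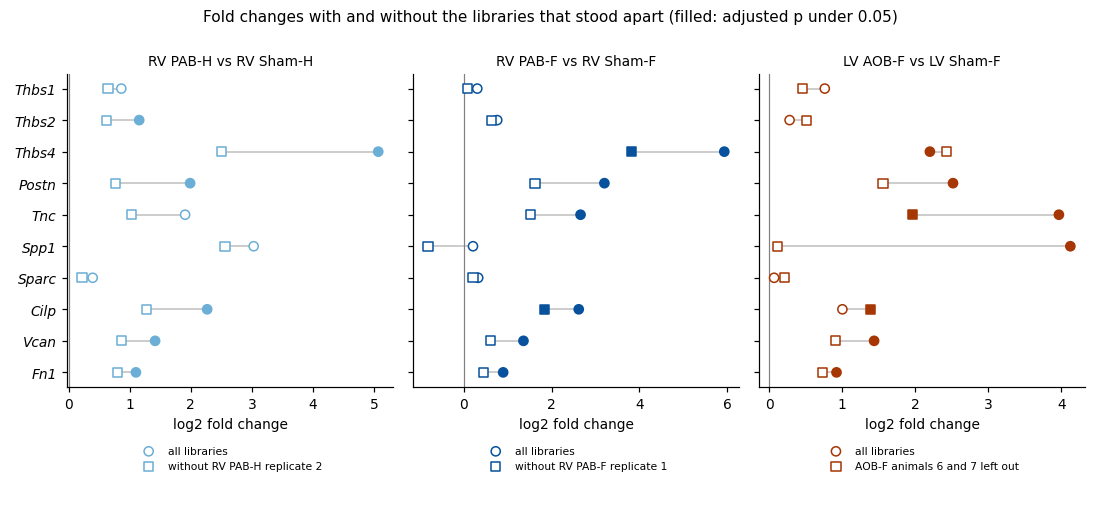
Log2 fold change of the 10 genes with all libraries (circles) and without the libraries that stood apart (squares) in 3 comparisons with sham, LV AOB-F, RV PAB-F and RV PAB-H; filled symbols have an adjusted p under 0.05 (edgeR). Squares are filled for 0 genes in RV PAB-H, for *Thbs4* and *Cilp* in RV PAB-F, while LV AOB-F has *Tnc* and *Cilp* filled and *Spp1* moves from 4.12 to 0.11.

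The loaded ventricles of the 2 models were compared directly at the failing stage. By edgeR the responses of RV PAB-F and LV AOB-F differed for 0 of the 10 genes, where 3.15% of all genes tested differed. An unadjusted p under 0.05 was seen for 2679 of all genes and 3 of the 10, and DESeq2 called 2 of the 10. *Thbs4* was nearest, with a response larger in the RV by 3.74 ± 1.17 (adjusted p = 0.0547, edgeR). *Spp1* had a response smaller in the RV, the difference being -3.91 ± 1.29 (adjusted p = 0.0705, edgeR). For *Vcan* and *Fn1* the differences were -0.08 ± 0.51 and -0.03 ± 0.42. In single leave-outs *Thbs4* was called in 8 of 31 fits and *Spp1* in 3 of 31. At the compensated stage 0 members and 0% of all genes differed. An unadjusted p under 0.05 was seen for 5 members and 1304 of all genes, and DESeq2 called 0 members. The response of the LV to AOB differed between the stages for 0 members and 0% of all genes by edgeR. At an unadjusted p under 0.05 there were 1148 of all genes and 2 members, and DESeq2 called 1 member. The response of *Tnc* was larger at the failing stage by 4.39 ± 0.97 (adjusted p = 0.0635, edgeR) and called in 7 of 29 single leave-outs.

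In the ventricle that was not loaded, 0 of the 10 genes were called by edgeR in any of the 4 comparisons. The background was 0% of the genes tested in LV PAB-H, in LV PAB-F and in RV AOB-H, and 0.0669% in RV AOB-F. Of all 11954 genes tested, 305 in LV PAB-H, 454 in LV PAB-F, 171 in RV AOB-H and 517 in RV AOB-F had an unadjusted p under 0.05. Among the 10 members these counts were 0 in LV PAB-H, 1 in LV PAB-F, 0 in RV AOB-H and 6 in RV AOB-F. DESeq2 called 0 members in each. The gene in LV PAB-F was *Thbs4*, with 11.3 to 185 (median 31.6) normalized counts against 2.46 to 21.4 (median 12.7), a difference of 2.39 ± 0.73 with an adjusted p above 0.99 by edgeR. Of its 6 libraries 4 lay above all shams, and the highest, replicate 1, came from the animal whose RV library was also the highest of its group. In RV AOB-F all 10 fold changes were positive, with a median of 0.70, and *Tnc* was at 2.22 ± 0.67 (adjusted p = 0.437, edgeR). Positive as well were 8 of 8 macrophage genes (median 0.80), 9 of 9 fibroblast (0.30), 7 of 7 mural (0.38) and 5 of 7 endothelial genes (0.09). Of these lists 0 genes were called, and their part was not tested. Without animals 6 and 7 *Tnc* was at -0.17 and *Spp1* at -1.37, and without RV Sham-F replicate 4 alone *Spp1* was called.

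Whether the loaded ventricle responded more than the remote ventricle was tested as a difference of responses, the RV and LV values coming from the same animals. Upon PAB at the failing stage only *Cilp* passed, its response being larger in the RV than in the LV by 2.51 ± 0.62 (adjusted p = 0.048, edgeR), where 0.351% of all genes tested passed. This call was lost in 20 of the 30 fits that left out 1 library of the 4 groups. With the animal as a block *Cilp* was at 2.01 (adjusted p = 0.0141, edgeR) and *Thbs4* passed as well at 2.59 (adjusted p = 0.0242, edgeR), in a fit where 2.48% of all genes tested passed. With DESeq2 size factors, without the low-count filter, with the fibroblast score as a covariate or in a fit to the 4 groups alone, 0 members passed by edgeR. At the compensated stage 0 members and 0% of all genes passed. An unadjusted p under 0.05 was seen for 1104 of all genes and for 7 members, among them *Thbs4* at 4.66 ± 1.24 and *Cilp* at 2.22 ± 0.64, and DESeq2 called 0 members. In these differences the fibroblast list was positive for 9 of 9 genes, with medians of 1.27 (compensated) and 0.91 (failing). The macrophage list was positive for 8 of 8, with medians of 1.17 and 0.79. Of both lists 0 genes were called, and their part was not tested. For AOB the LV and RV responses differed for 0 members and 0% of all genes by edgeR at both stages, with 0 members unadjusted and 0 by DESeq2. Of all genes 577 at the compensated and 1161 at the failing stage had an unadjusted p under 0.05.

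The sham-operated hearts gave the chamber difference without load. In Sham-H 2 of the 10 genes were called lower in the RV than in the LV by edgeR, *Sparc* and *Cilp*, where 11.4% of all genes tested were lower and 21% differed in either direction. *Sparc* had 4673 to 5261 (median 4964) normalized counts in RV Sham-H and 6062 to 18051 (median 7849.5) in LV Sham-H, a difference of -0.99 ± 0.21 (adjusted p = 0.000852, edgeR). *Cilp* had 14.9 to 56.6 (median 39.4) in the RV and 57.1 to 166 (median 88.3) in the LV, a difference of -1.44 ± 0.45 (adjusted p = 0.017, edgeR). For both genes the groups did not overlap, as in 2.99% of the genes tested in this direction, and the LV was higher in 7 of 7 animals. The call of *Cilp* was lost without LV Sham-H replicate 4 (adjusted p = 0.0759, edgeR) or replicate 5 (adjusted p = 0.0577, edgeR). In the same comparison 4 of 7 endothelial genes (median -0.71) and 3 of 7 mural genes (-0.59) were called lower in the RV, and 0 of 9 fibroblast and 0 of 8 macrophage genes (-0.27 and -0.29). The part of the endothelial and mural markers was not tested.

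In Sham-F 4 of the 10 genes were called lower in the RV, *Sparc*, *Cilp*, *Thbs2* and *Fn1*, where 38.6% of all genes tested were lower and 74.3% differed in either direction. This count is near the share over all genes, so it shows no trait of the 10 genes as a set. *Sparc* had 3188 to 5031 (median 3886) normalized counts in RV Sham-F and 8652 to 20256 (median 15124) in LV Sham-F (-1.85 ± 0.19, adjusted p = 2.25e-13, edgeR). *Cilp* had 9.9 to 48.8 (median 21.7) in the RV and 51 to 257 (median 135) in the LV, a difference of -2.34 ± 0.42 (adjusted p = 7.91e-07, edgeR). Within an animal the LV held a median of 3.57 times the *Sparc* level and 5.33 times the *Cilp* level of its RV, higher in 9 of 9 animals.

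*Thbs2* followed the same order in Sham-F, with 131 to 314 (median 213) normalized counts in the RV and 381 to 1033 (median 561) in the LV (-1.44 ± 0.26, adjusted p = 1.06e-06, edgeR), and the groups of *Sparc*, *Cilp* and *Thbs2* did not overlap, against 19.4% of the genes tested. *Fn1* had 646 to 1763 (median 919.9) in the RV and 1193 to 3271 (median 2044) in the LV, a difference of -0.99 ± 0.28 (adjusted p = 0.00106, edgeR), with some overlap but a higher LV in 9 of 9 animals. With the animal as a block 7 of 9 tested members were called, where 79% of all genes tested were, namely the 4 named and *Thbs1* (-0.47), *Tnc* (-1.14) and, in the opposite direction, *Vcan* (0.35), while *Thbs4* did not pass the filter. Without the block, leaving out RV Sham-F replicate 3 or LV Sham-F replicate 8 or 9 added *Thbs4*, and leaving out LV Sham-F replicate 4 added *Spp1*. Markers of other cells were also called lower in the RV of Sham-F, namely 6 of 7 endothelial genes (median -1.50), 5 of 7 mural genes (-1.14), 5 of 8 macrophage genes (-1.16) and 7 of 9 fibroblast genes (-0.84), beside a median of -1.09 for the members. Their part in the result was not tested. With the fibroblast score as a covariate the count of members was again 4. That score rests on genes that themselves differed between the ventricles, so the fit cannot separate their part from that of the chamber.

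**Figure D5:**
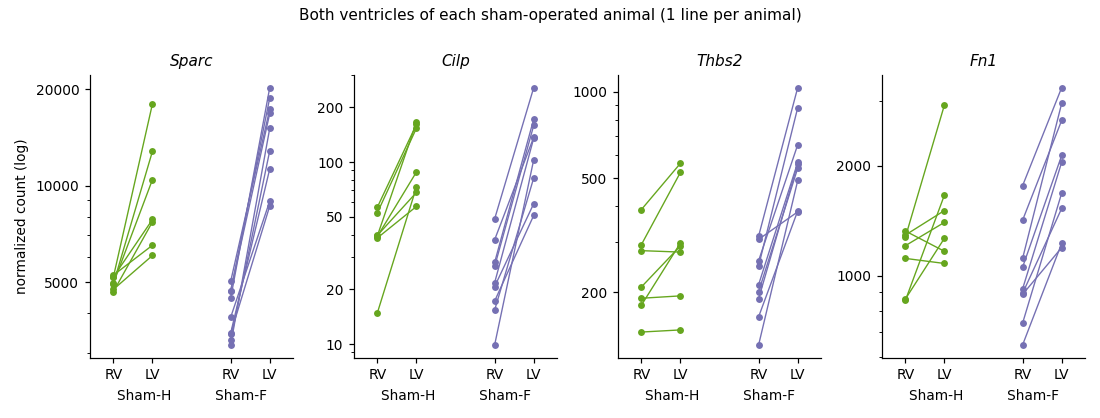
Normalized counts (log axis) of *Sparc*, *Cilp*, *Thbs2* and *Fn1* in the RV and LV of each sham-operated animal, 1 line per animal, for 7 Sham-H (green) and 9 Sham-F (purple) rats. All lines of *Sparc* and *Cilp* rise from RV to LV, and in Sham-F those of *Thbs2* and *Fn1* do too. Shown are only the genes called lower in the RV in Sham-F.

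Between the younger and the older sham groups, 0 of the 10 genes were called in the RV by edgeR, where 0.0502% of all genes tested were. An unadjusted p under 0.05 was seen for 601 of all genes and for 1 member, *Spp1*, and DESeq2 called 0 members. In the LV 3 of the 10 genes were called higher in Sham-F, where 27.8% of all genes tested were higher and 57.4% differed. That count too is near the share over all genes and shows no trait of the 10 as a set. *Thbs1* had 580.3 to 1960.2 (median 1303) in LV Sham-H and 917 to 4947 (median 2741) in LV Sham-F, a difference of 1.15 ± 0.33 (adjusted p = 0.00241, edgeR), with 8 of 9 older libraries above all younger. *Thbs2* had 148 to 563 (median 290.2) and 381 to 1033 (median 561) in the same groups, a difference of 0.89 ± 0.28 (adjusted p = 0.00439, edgeR). *Sparc* differed by 0.54 ± 0.20 (adjusted p = 0.018, edgeR), a call lost in 3 of 16 fits that left out 1 library, without LV Sham-H replicate 1 or 7 or LV Sham-F replicate 3. In the older LV 5 of 9 fibroblast, 5 of 8 macrophage, 5 of 7 mural, 2 of 4 Schwann cell, 2 of 4 atrial and 2 of 7 endothelial genes were higher as well, with medians of 0.52, 0.75, 0.74, 1.09, 0.63 and 0.34, and with the fibroblast score as a covariate 1 member was called.

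Among receptors for these proteins, 6 of 13 testable genes were higher in LV AOB-F, against 0 in LV AOB-H, 2 in RV PAB-H and 0 in RV PAB-F. In LV AOB-F they were led by the integrin chain *Itgb1* (1.13 ± 0.24, adjusted p = 0.000975), the hyaluronan and osteopontin receptor *Cd44* (1.12 ± 0.25, adjusted p = 0.00173), the proteoglycan *Sdc4* (0.78 ± 0.20, adjusted p = 0.00538) and the thrombospondin receptor *Cd47* (0.39 ± 0.11, adjusted p = 0.0146), all by edgeR. Their median over the list was 0.49, and without animals 6 and 7 the count was 0. In RV PAB-H the 2 were *Sdc1* (1.55 ± 0.38, adjusted p = 0.0143) and *Lrp1* (1.33 ± 0.33, adjusted p = 0.0155), and without replicate 2 the count was again 0.

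Of 15 testable hyaluronan partners and matrix-processing enzymes, 2 were higher in RV PAB-H, 5 in RV PAB-F, 1 in LV AOB-F and 0 in LV AOB-H by edgeR. The collagen lysyl hydroxylase *Plod2* was called in both RV comparisons (1.35 ± 0.30, adjusted p = 0.00587 in RV PAB-H and 1.50 ± 0.28, adjusted p = 0.000118 in RV PAB-F). The crosslinking transglutaminase *Tgm2* was as well (0.77 ± 0.22, adjusted p = 0.0275 and 1.45 ± 0.20, adjusted p = 2.53e-07). In RV PAB-F the link protein *Hapln3* (1.46 ± 0.40, adjusted p = 0.0107) and the hyaluronan synthase *Has1* (1.12 ± 0.38, adjusted p = 0.0401) were next, and *Has1* was the 1 called in LV AOB-F (1.03 ± 0.35, adjusted p = 0.0424). Without the libraries that stood apart the counts were 0 in LV AOB-F, 3 in RV PAB-F and 0 in RV PAB-H.

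Of 9 testable paralogues, other genes of the same families, 1 was higher and 1 lower in RV PAB-H, 2 higher and 1 lower in RV PAB-F, and 0 changed in either LV comparison by edgeR. *Spock2*, a proteoglycan of the *Sparc* family, was higher in both (0.61 ± 0.18, adjusted p = 0.0372 and 0.80 ± 0.17, adjusted p = 0.000771). *Tgfbi*, which shares the fasciclin domains of periostin, was lower in both (-0.41 ± 0.12, adjusted p = 0.035 and -0.40 ± 0.12, adjusted p = 0.0152), opposite in sign to *Postn*. *Comp*, a thrombospondin of cartilage, was higher in RV PAB-F (1.46 ± 0.49, adjusted p = 0.041). Without the libraries that stood apart 1 was called in LV AOB-F, 1 in RV PAB-F and 0 in RV PAB-H.

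Within groups, the 10 genes varied together to different degrees. Over the 82 libraries, deviations of log2 CPM from the group means had a median Pearson r of 0.45 over the 45 pairs of genes, from -0.072 for *Thbs2* with *Spp1* to 0.731 for *Postn* with *Vcan*. These libraries share cell preparations and depth, so the values are descriptions. With the mean deviation of the fibroblast list, r was 0.915 for *Thbs2* and 0.739 for *Cilp*, but 0.245 for *Tnc* and 0.0511 for *Spp1*. With the macrophage list it was 0.773 for *Fn1*, 0.735 for *Vcan*, 0.709 for *Postn*, 0.693 for *Sparc* and 0.674 for *Tnc*. With the same list r was 0.664 for *Thbs4*, 0.619 for *Thbs2*, 0.586 for *Thbs1*, 0.467 for *Spp1* and 0.44 for *Cilp*.

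Over the 12 group means of log2 CPM, the gene most like each of the 10 was found as a description, among the genes tested that are not members. For the thrombospondins these were *Ccl3* for *Thbs1* (r = 0.957), *Irf5* for *Thbs2* (r = 0.985) and *Rnase4* for *Thbs4* (r = 0.964). *Postn* was most like *Flt3* (r = 0.95), *Tnc* like *Paqr8* (r = 0.959), *Cilp* like *Ift122* (r = 0.992) and *Spp1* like *Abcb1b* (r = 0.947), and its receptor *Cd44* was among its 3 closest (r = 0.933). *Sparc* was most like *Mprip* (r = 0.992), followed by the basement membrane collagen *Col4a1* (r = 0.989), *Vcan* like *Colec12* (r = 0.956) and *Fn1* like *Sash3* (r = 0.972). Each r rests on 12 points and was picked among the highest of the 11954 genes tested, with the 10 members left out of the search.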

How the data were processed

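The authors trimmed the reads with Trim Galore, aligned them with STAR to Rnor6.0 with UCSC annotation and counted them per gene with featureCounts, in an nf-core pipeline. They deposited raw counts, normalized counts (a signal scale, raw counts divided by DESeq2 1.28.1 size factors of 0.639 to 1.571) and FPKM values per library. The raw counts summed to 6675287 to 19665439 per library (median 13074485.5), 1773 of the 17337 genes had none, and no library was a copy of another. FPKM was used only to compare levels between genes. Replicates are separate animals, and the depth of counts limits precision mainly for *Thbs4* and *Tnc*, which had no count in 3 libraries and 1 library.

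Raw counts were tested with edgeR 4.0.16 (R 4.3.3) by the quasi-likelihood test, with 12 group means over all 82 libraries, TMM scaling and filterByExpr (11954 genes, common biological coefficient of variation 0.244). P-values were adjusted over all genes tested by the Benjamini-Hochberg method, with calls at 0.05. The code was tested on simulated data. Group means for likeness used log2 CPM with a prior count of 2. Alternatives were DESeq2 1.42.0, its size factors, no low-count filter, fits to the compared groups alone, sex or a fibroblast score (mean log2 CPM of the list) as a covariate, the study's criteria, a replicate block, and leaving out each library.

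The RV and LV with 1 number are the same animal, and their deviations from the group means correlated at a median r of 0.186 to 0.297 per condition (lowest pair -0.141), against -0.0686 to -0.0142 between different animals. The genes, lists and tests were chosen with earlier results of these data known. All 10 genes were described whatever their values, related genes by smallest p among those called (at most 4 per list and comparison), and similar genes by the highest r. Sequences are from RefSeq.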

Additional observations from a re-analysis of the deposited data

Results flagged for a closer look

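In 17 of the 120 combinations of gene and group, 1 library lay beyond Dixon's 95% limit, where chance alone gives about 1 in 20. Several came from the same libraries. LV AOB-H replicate 6 was high for *Postn* (112), *Sparc* (16391), *Vcan* (533) and *Fn1* (4377 normalized counts), and RV AOB-H replicate 6, the same animal, for *Fn1* (3782). LV Sham-H replicate 4 was high for *Fn1* (2932) and *Thbs4* (25.7), and RV Sham-H replicate 4, the same animal, for *Thbs4* (32.6).

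In the loaded RV, RV PAB-H replicate 2 was high for *Postn* (518) and RV PAB-F replicate 1 for *Vcan* (1401). Among RV Sham-F libraries, replicate 4 was high for *Spp1* (1061, against 248 in the LV of the same animal, also the highest of its group), replicate 3 was high for *Postn* (52.9) and replicate 9 was low for *Tnc* (0). *Sparc* was high in LV PAB-H replicate 2 (17210) and low in LV PAB-F replicate 5 (6185). *Cilp* was low in RV Sham-H replicate 7 (14.9) and in RV AOB-F replicate 7 (7.05).

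The response of *Cilp* to PAB at the failing stage differed between the ventricles, being larger in the RV than in the LV by 2.51 on the log2 scale (adjusted p = 0.048, edgeR). Leaving out 1 library at a time gave 1.73 to 2.70, with adjusted p-values of 0.0131 to 0.494.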

How the results depend on the processing

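Counts of the 10 genes called are given here where they moved by over 1.5 times. With the fibroblast score as a covariate they were 0 in RV PAB-H, 2 in RV PAB-F, 1 for the LV of older against younger shams, 0 for the *Cilp* comparison of RV with LV responses and 1 for the stages of AOB. Fits to the compared groups alone gave 2 in LV AOB-F and 0 for that RV and LV difference, which was also 0 with DESeq2 size factors and 0 without the low-count filter. The DESeq2 test called 1 gene for the stages of AOB and 2 between the loaded ventricles at the failing stage, and sex as a covariate 1 there. Exactly at the limit of 1.5, sex as a covariate gave 4 in RV PAB-H against 6 in the main fit. Shares of all genes called were not computed for the fits with a covariate or for the DESeq2 test. Under the study's criteria (log2 fold change over 1, p up to 0.01, mean over 50) the count was 1 in LV PAB-F (0.0167% of all genes tested). It was 1 between ventricles of Sham-H (2.83%), 1 between ages in the RV (0.0837%) and 1 in the LV (8.05%). Leaving out AOB-F animals 6 and 7 gave 2 in LV AOB-F.

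With the animal as a replicate block, 7 of 9 tested members were called between the ventricles of Sham-F (79% of all genes) and 2 for the PAB-F difference of ventricles (2.48% of all genes), and no other count moved by over 1.5 times. Between banded and sham groups, or older and younger shams, 1 number stands for different animals (median r -0.103 to 0.160, other pairs -0.0392 to 0.115). Males are numbered first in every condition, so libraries of 1 number often share sex. Median r was 0.129 against -0.0392 for other pairs in RV PAB-H and 0.139 against -0.0321 in RV PAB-F. It was lower than for other pairs in LV AOB-H (-0.0809 against 0.0247), in LV PAB-H (-0.0140 against 0.115) and between ages in the LV (-0.103 against -0.0114). A block by number gave 2 in RV PAB-H (11.4% of all genes) and 3 in RV PAB-F (11.2%), but 0 in LV AOB-F, where it left 1 gene called of all tested.

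Leaving out 1 library at a time gave 0 to 6 in RV PAB-H and 2 to 7 in RV PAB-F. It gave 4 to 7 in LV AOB-F and 0 to 1 in RV AOB-F. Between ventricles it gave 1 to 2 in Sham-H and 4 to 5 in Sham-F, and between ages in the LV 2 to 3. It gave 0 to 1 for the PAB-F ventricle difference and 0 to 1 for the stages of AOB. Between the failing loaded ventricles it gave 0 to 2. Of these single leave-outs, shares of all genes called were computed only without RV PAB-H replicate 2 and without RV PAB-F replicate 1. Among RV PAB-H, RV PAB-F and LV AOB-F, fold changes that changed sign were, with the fibroblast score, *Thbs1* (-0.11), *Thbs2* (-0.010) and *Sparc* (-0.082) in RV PAB-H, *Thbs1* (-0.35), *Thbs2* (-0.038) and *Sparc* (-0.041) in RV PAB-F, with LV AOB-F having *Thbs2* (-0.0096) and *Sparc* (-0.076). With the number as a block they were *Thbs1* for the failing RV (-0.061) and *Sparc* for the failing LV (-0.066). Without 1 library they were *Spp1* for the failing RV (range -0.82 to 2.62) and *Sparc* for the failing LV (range -0.019 to 0.18). Over all 20 comparisons the leave-one-out values of 58 of 200 gene and comparison pairs lay on both sides of 0, 0 of them among the 28 called. The cause of these moves was not tested. Of the values for single genes, 755 kept direction and side of the threshold, 88 lost a call, 12 gained one and 14 changed sign.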
